A study of Macaca mulatta with 12 samples.

Results

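The cadherins and protocadherins are described here across the cell classes of the rhesus macaque amygdala. Members were all rows of the deposited count table whose symbol begins with CDH or PCDH and a digit, or with PCDHA, PCDHB or PCDHG, and 36 of 19708 gene rows met this rule. They comprise 5 classical cadherins of type I, 13 of type II, T-cadherin (CDH13), 3 other cadherins, 2 delta-1, 5 delta-2 and 2 other non-clustered protocadherins, and 5 clustered protocadherins. Nuclei from frozen, surgically removed amygdala of Macaca mulatta were profiled by droplet-based single-nucleus RNA sequencing, in which each captured transcript carries a molecular barcode (UMI). The 12 labelled samples form 1 group, with specimen numbers up to 3. The labels used here give no age, genotype or treatment, and tie none of the 3 barcode suffixes of the deposited nuclei to a sample. All nuclei are therefore 1 pool, with no test between samples, and the 3 suffixes are called barcode sets and serve only to check if a direction repeats.

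Cadherins are calcium-dependent adhesion proteins. Classical cadherins bind partners on the neighbouring cell with their outermost extracellular repeat and are anchored to actin inside the cell through catenins. Protocadherins lack the classical catenin-binding tail. The clustered protocadherins give single neurons combinations of surface isoforms used in self-recognition, whereas type II cadherins and delta-protocadherins are known for patterns that differ between neuron types and brain nuclei.

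The table held 26400 nuclei with 151526883 UMIs, and the sets had 8299 to 9201 nuclei each and shared 20 to 26 barcodes pairwise. After 1862 presumed doublets were left out, 24538 nuclei were clustered without the member genes, and clusters were named from marker genes, so each class name below stands for clusters like that class by their markers. Defining markers stood in their own class, with MBP at 10457 CPM (summed UMIs of a gene per 1000000 summed UMIs of a class) in oligodendrocytes, FLT1 at 2881 CPM in endothelial cells, CX3CR1 at 538 CPM in microglia and MYH11 at 579 CPM in mural cells. The classes were excitatory neurons (9882 nuclei), astrocytes (5974), inhibitory neurons (4121), ependymal cells (792), oligodendrocytes (449), oligodendrocyte precursors (367), microglia (181), mural cells (158), endothelial cells (115) and committed oligodendrocyte precursors (95). A further 922 excitatory nuclei were set aside because their leading genes include a marker of another class, and 1482 nuclei stayed unnamed. Median depth ran from 1110 UMIs per nucleus in microglia to 7836 in excitatory neurons. A list of 10 neuronal transcripts was above 0 in every class, with a summed level of 6778 CPM in excitatory neurons, 6094 in inhibitory neurons and 1538 to 2543 in the other classes. The part of these transcripts in the levels below was not tested.

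Of the 36 members, 31 had at least 500 UMIs in the pool and are described by class. Their highest level was in a neuronal class for 8 members, in oligodendrocyte precursors for 7, and in another glial or vascular class for the rest. The same counts were not made over all genes, so they are not read as a trait of the members. The 2 members led by microglia, PCDHB14 and PCDH8, were at 26.4 and 30.8 CPM there, in a class of 226905 UMIs. The class with the highest level was the same in all 3 barcode sets for 18 of the 31. A specificity index (tau, 0 for an even level and 1 for a level in 1 class only) had a median of 0.685 over the 31 members across the classes and 0.567 over 5833 genes kept out of the clustering. Across neuronal sub-clusters the medians were 0.715 and 0.418. CPM is a level of nuclear RNA counted at the 3′ end with no scaling to gene length, so levels are compared between classes for 1 gene and not between genes.

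**Figure D1:**
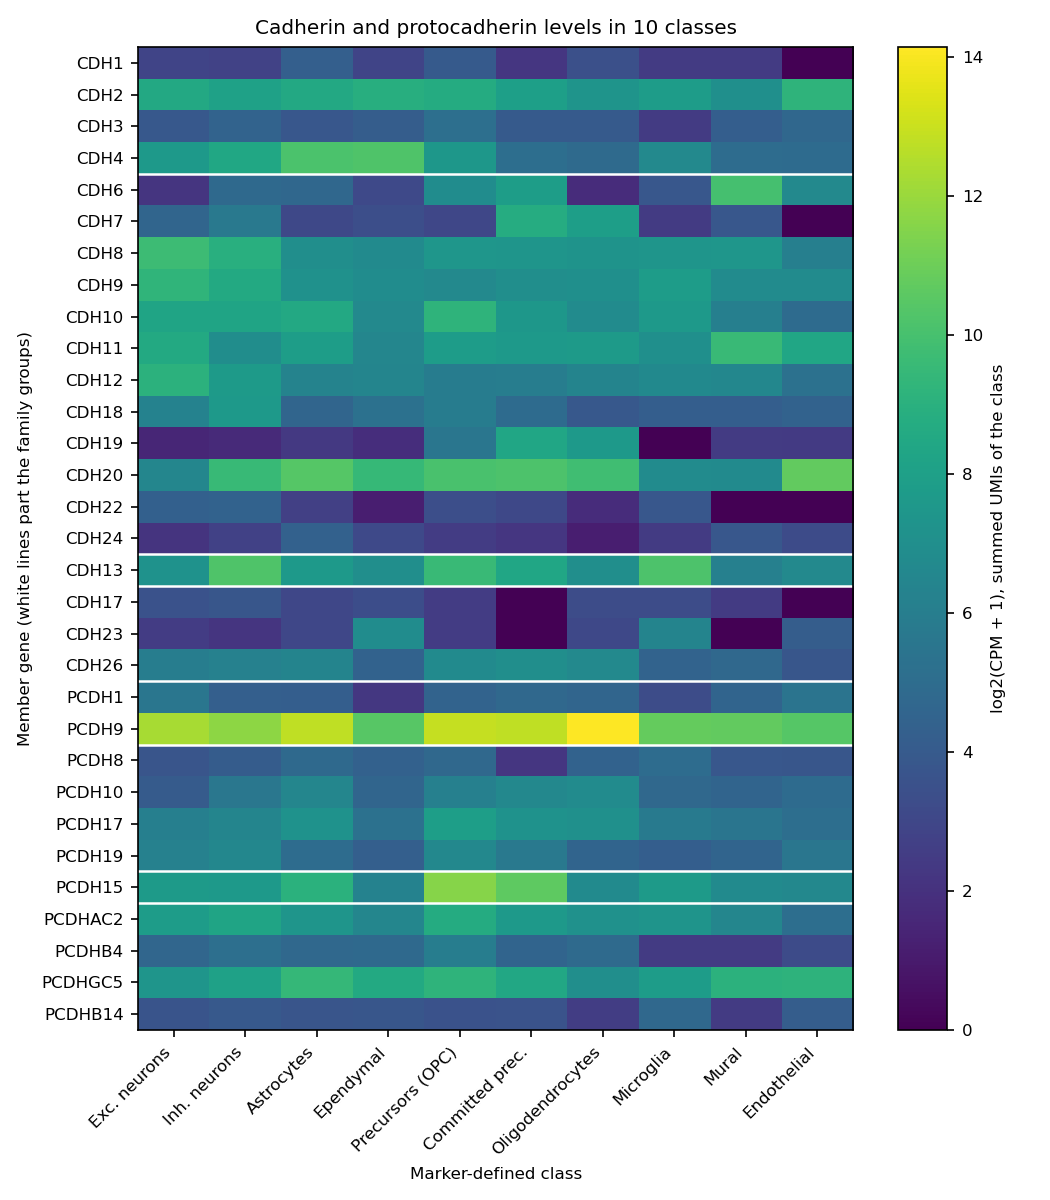
Heat map of log2(CPM + 1) for the 31 described members (rows, parted into family groups by white lines) in 10 marker-defined classes (columns). CDH8, CDH9 and CDH12 are brightest in the neuronal columns, PCDH15 in the precursor columns, CDH6 in mural cells and PCDH9 in oligodendrocytes.

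Excitatory and inhibitory neurons differed most in CDH13, CDH20 and CDH6. Of 34 measured members, 3 had an excitatory level at least 2-fold above the inhibitory one, as did 8.63% of all 7379 genes tested, and 8 were at least 2-fold lower, as were 8.54%. A gene counted as measured with at least 50 UMIs in 1 of the groups and at least 10 expected in both. All 11 differences had the same direction in every barcode set. The median log2 ratio was −0.33 over the measured members and −0.10 over all genes tested.

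The members on the inhibitory side were led by CDH13, or T-cadherin, which is held in the membrane by a lipid anchor and has no cytoplasmic tail. CDH13 stood at 1220, 1214 and 1219 CPM in the inhibitory neurons of barcode sets 1, 2 and 3, and at 138, 145 and 155 CPM in the excitatory neurons. The ranges are far apart, and the pooled level was 8.35-fold higher in inhibitory neurons (log2 ratio of excitatory over inhibitory −3.06, 95% counting interval −3.09 to −3.03). CDH20, a type II cadherin, stood at 698, 761 and 732 CPM in inhibitory neurons. In excitatory neurons CDH20 was at 87.1, 84.4 and 92.4 CPM, and the pooled difference was 8.31-fold. CDH20 had its lowest level of all 10 classes in excitatory neurons. CDH6, another type II member, was 7.56-fold higher in inhibitory neurons, at 27.4 against 3.62 CPM.

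CDH18 and CDH7, both type II cadherins, and the delta-2 protocadherins PCDH10 and PCDH18 lay on the same side. CDH18 was at 201 CPM in inhibitory and 76.1 CPM in excitatory neurons, a 2.64-fold difference. PCDH10, a protocadherin that recruits actin regulators of the WAVE complex, was 3.03-fold higher in inhibitory neurons, at 48.4 against 16 CPM. CDH7 was 2.20-fold higher, at 52.1 against 23.7 CPM, and the difference became smaller than 2-fold (log2 ratio −0.83) without the 4868 excitatory nuclei of the cluster with the highest PROX1. PCDH18 and CDH15 (M-cadherin, known from muscle) were counted on few UMIs, 138 and 55 in excitatory neurons, and were 3.36-fold and 2.15-fold higher in inhibitory neurons. Without the PROX1 cluster the log2 ratio of PCDH18 moved from −1.75 to −2.53. CDH15 fell under 2-fold when nuclei were thinned to 1000 UMIs (log2 ratio −0.53).

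On the excitatory side were CDH11, CDH12 and PCDH1. CDH11, a type II cadherin also known from mesenchymal cells, was at 389, 374 and 384 CPM in the excitatory and at 126, 118 and 115 CPM in the inhibitory neurons of the 3 sets. Its groups did not overlap, and the pooled ratio was 3.19 (log2 ratio 1.67, 95% counting interval 1.62 to 1.73). CDH12 was at 536 and 212 CPM, 2.52-fold higher in excitatory neurons. The delta-1 protocadherin PCDH1 was at 46.7 and 18.6 CPM, 2.51-fold higher. CDH8 and CDH9, which had their highest levels of all classes in excitatory neurons (845 and 612 CPM), were above their inhibitory levels (493 and 386 CPM) by less than 2-fold.

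**Figure D2:**
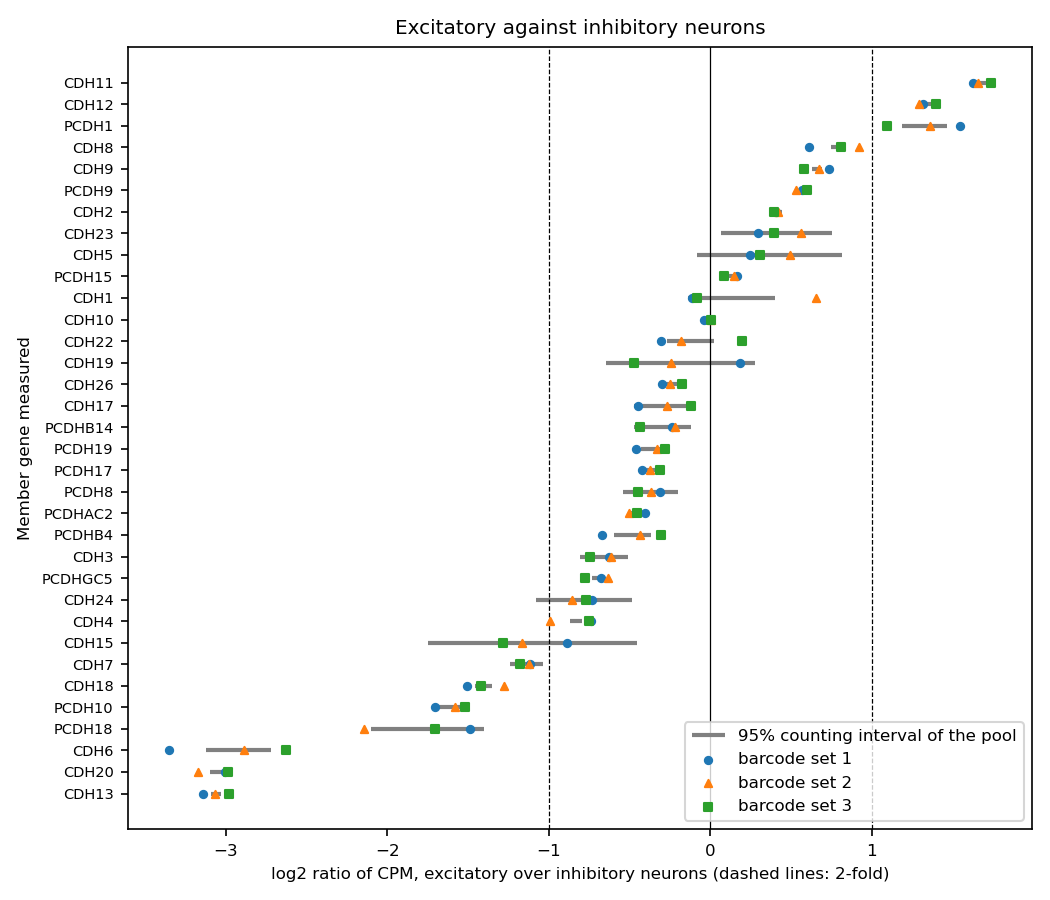
Log2 ratio of CPM in excitatory over inhibitory neurons (x axis) for the 34 measured members (y axis), with grey bars for the 95% counting interval of the pool, points for the 3 barcode sets and dashed lines at 2-fold. CDH13, CDH20 and CDH6 lie furthest to the inhibitory side and CDH11 furthest to the excitatory side in every set.

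The type I cadherins other than CDH15 and the clustered protocadherins showed smaller neuronal contrasts. CDH2 (N-cadherin), the main classical cadherin of synapses, was at 369 CPM in excitatory and 278 CPM in inhibitory neurons. CDH4 (R-cadherin) was at 192 and 341 CPM, and all 4 measured clustered protocadherins were within 2-fold. Among genes of cadherin signalling fixed as lists, catenins had 0 of 11 measured genes at least 2-fold higher and 1 lower. That gene was CTNNA3 (alpha-T-catenin), at 106 CPM in excitatory and 479 CPM in inhibitory neurons. Of 17 measured genes of the wider cadherin superfamily, 2 were higher, among them CLSTN2 (a calsyntenin of the postsynaptic membrane) at 1792 against 783 CPM, and 4 were lower, among them the large cadherins FAT1 and DCHS2. Of 19 measured regulators and partners kept out of the clustering, 2 were higher, the kinase PTK2B (log2 ratio 3.66) and the WAVE subunit WASF1 (2.31), and 1 was lower, MMP2.

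In the oligodendrocyte lineage PCDH15, CDH13 and CDH10 were high in precursors and low in oligodendrocytes, while CDH7, CDH19 and PCDH9 were higher in oligodendrocytes. Oligodendrocytes and their precursors could be compared for 22 members, and 3 were at least 2-fold higher in oligodendrocytes, where 14.6% of 2010 genes tested were. Another 11 were at least 2-fold lower, where 17.6% of genes tested were, and the median log2 ratio was −1.01 over the measured members and −0.01 over all genes. All 14 directions recurred in every barcode set. The lower members came from 6 family groups, with 3 of 3 measured clustered protocadherins among them.

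PCDH15, a protocadherin best known from the tip link of hair cells, was highest of all classes in the precursors. It stood at 2942, 3138 and 3115 CPM in precursors, at 1488, 1280 and 2189 CPM in committed precursors, and at 118, 108 and 98.1 CPM in oligodendrocytes. The 3 stages do not overlap, and the pooled level was 28.6-fold higher in precursors than in oligodendrocytes. PCDH15 had a UMI in 364 of 367 precursor nuclei (99.2%, exact 95% binomial interval 97.6 to 99.8%) and in 13.1% of ependymal nuclei. Median depth was 2230 UMIs per nucleus in precursors and 1933 in ependymal cells, and thinned to 1000 UMIs the shares were 93.3% and 7.07%. Ependymal cells had the lowest PCDH15 level of the classes. Before thinning the share was 80% in committed precursors, 61.1% in excitatory neurons, 48.8% in inhibitory neurons and 48.9% in astrocytes. Median depths in these classes were 2633, 7836, 5635 and 1732 UMIs.

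CDH13 and CDH10 had the same order of pooled levels over the stages. CDH13 was at 763, 330 and 126 CPM in precursors, committed precursors and oligodendrocytes. CDH10, a type II cadherin, was at 577, 182 and 115 CPM, with the committed precursors of set 1 (62.4 CPM) below the oligodendrocytes of that set (105 CPM). CDH2, PCDHAC2, PCDHGC5, CDH18, PCDH19 and PCDHB4 likewise lay 2-fold or more below their precursor level in oligodendrocytes. PCDH19, a delta-2 protocadherin whose mutation causes an epilepsy, was at 98.2 and 22.4 CPM. CDH4 was at 182 CPM in precursors and 28.6 CPM in oligodendrocytes (log2 ratio −2.67). This call ended, at a log2 ratio of 0.15, when a cluster of 83 nuclei with a high doublet score was counted as oligodendrocytes. That cluster held CDH4 at 594 CPM and the astrocyte markers AQP4 and GFAP at 135 and 206 CPM, where oligodendrocytes had 72.2 and 14.9 CPM. Any part of astrocyte transcripts in its CDH4 level was not tested.

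CDH6, CDH7 and CDH19, all type II cadherins, were highest of the 3 stages in the committed precursors. CDH7 stood at 562, 345 and 360 CPM there, at 197, 181 and 339 CPM in oligodendrocytes and at 9.81, 3.53 and 7.82 CPM in precursors. Precursors are thus separated from both later stages, and the ratio of oligodendrocytes to precursors was 34.9 (log2 5.13, 95% counting interval 3.98 to 6.59, on 6 UMIs in precursors). In committed precursors 39.1% of the 115 CDH7 UMIs came from 5 nuclei.

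CDH19, known from Schwann cell precursors, stood at 396, 274 and 334 CPM in committed precursors. It was at 206, 193 and 196 CPM in oligodendrocytes and at 26.1, 42.3 and 74.3 CPM in precursors. The stages do not overlap, and oligodendrocytes exceeded precursors 4.29-fold. CDH6 was at 116 CPM in precursors, 238 CPM in committed precursors and 2.49 CPM in oligodendrocytes, the last on 2 UMIs (log2 ratio to precursors −5.54, 95% counting interval −8.61 to −3.65). In committed precursors 35.9% of the 64 CDH6 UMIs came from 5 nuclei.

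PCDH9, a delta-1 protocadherin, was highest of all classes in oligodendrocytes. It stood at 18484, 18723 and 17508 CPM there, and at 8061, 7362 and 7993 CPM in precursors. The groups do not overlap and differ 2.33-fold. CDH20 moved by less than 2-fold over the lineage, from 1105 CPM in precursors to 1169 in committed precursors and 881 in oligodendrocytes.

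**Figure D3:**
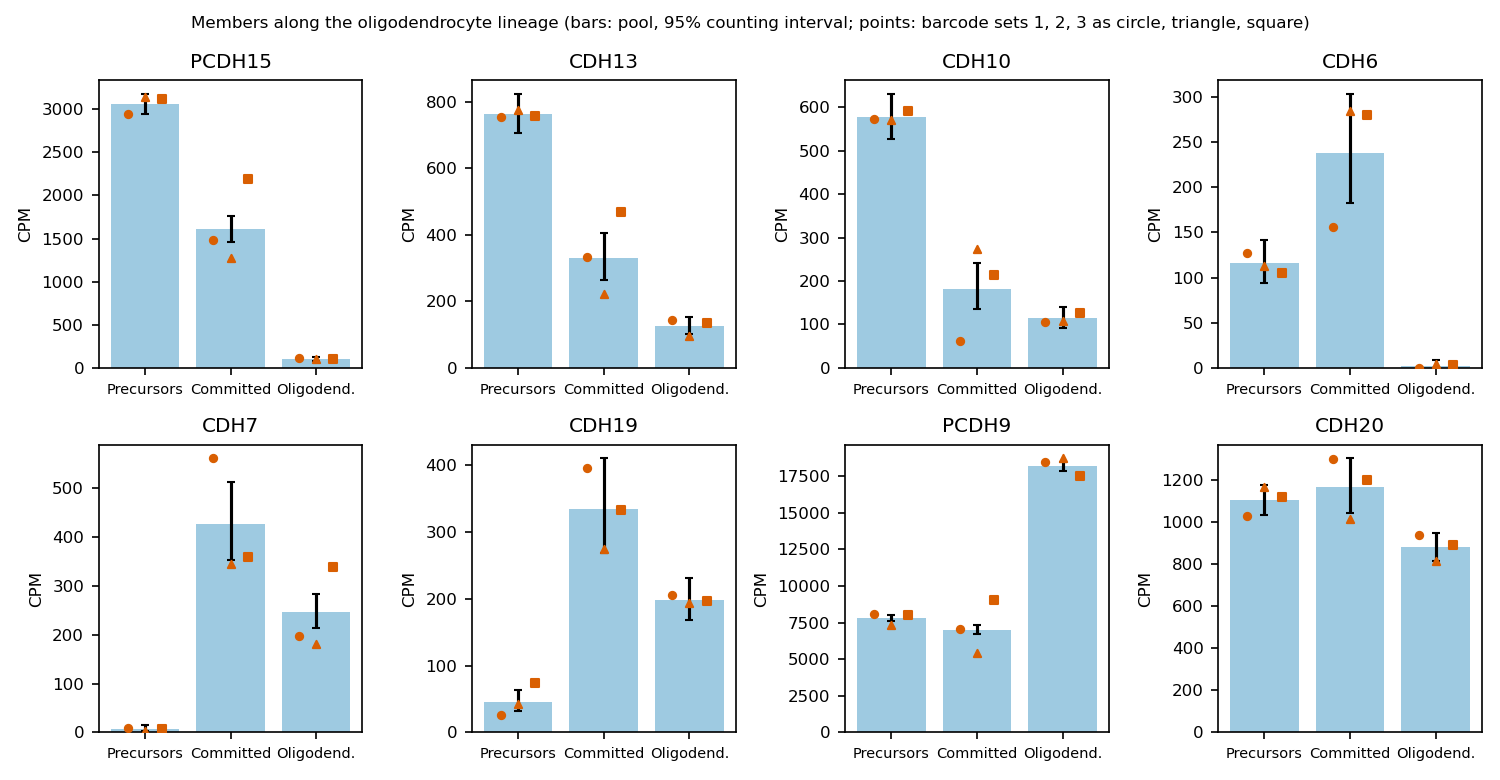
CPM of 8 members in oligodendrocyte precursors, committed precursors and oligodendrocytes, with bars for the pool, whiskers for the exact 95% Poisson interval and points for the 3 barcode sets. PCDH15 and CDH13 step down over the stages, CDH6, CDH7 and CDH19 are highest in the committed stage, and PCDH9 is highest in oligodendrocytes.

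Catenins split in this comparison. Of 9 measured, 2 were at least 2-fold higher in oligodendrocytes, CTNNA3 (2977 against 528 CPM) and the desmosomal PKP2 (143 against 13 CPM). CTNNA2 and CTNND2, the catenins typical of neural cadherin complexes, were lower, at log2 ratios of −1.97 and −1.62. Of 14 measured regulators, 2 were higher, among them the focal adhesion kinase PTK2 (log2 ratio 1.5), and 0 were lower. Of 4 measured genes of the wider superfamily, 1 was lower, DCHS2.

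Astrocytes and ependymal cells shared a high level of CDH4. Each was set against the mean of the 9 other classes. In astrocytes 4 of 34 measured members were at least 2-fold higher, where 8.66% of 7348 genes tested were. CDH4 stood at 1101, 1173 and 1121 CPM in astrocytes and at 1182, 1261 and 1253 CPM in ependymal cells. The lowest ependymal set lay just above the highest astrocyte set, and the other 8 classes had pooled levels of 28.6 to 341 CPM. Astrocyte CDH4 exceeded the mean of the other classes 4.69-fold. CDH24, CDH1 and CDH15 were also past 2-fold over that mean in astrocytes, at low levels of 20, 18.3 and 1.23 CPM, CDH15 on 13 UMIs. CDH15 was higher still in inhibitory neurons (1.41 CPM) and ependymal cells (1.29 CPM), and CDH1 was at 15.4 CPM in oligodendrocyte precursors. CDH1 is E-cadherin, the adhesion protein of epithelia.

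Astrocytes also had the highest PCDHGC5 (686 CPM) and the second highest CDH20 (1347 CPM), both within 2-fold of the mean of the others. Against that mean 9 members were at least 2-fold lower in astrocytes, where 17.4% of genes tested were, among them CDH8, CDH13 and CDH18. CTNNA2, CTNND2 and CTNNA1 were the 3 catenins at least 2-fold higher, at 7414, 2786 and 294 CPM, and 3 of 11 were lower. None of 16 measured genes of the wider superfamily and none of 19 regulators was at least 2-fold higher, while 5 and 4 were lower.

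In ependymal cells 2 of 33 measured members were at least 2-fold higher, where 13.3% of 5890 genes tested were, and 18 were lower, where 17.9% were. The higher ones were CDH4 (5.35-fold) and CDH23. CDH23, the tip-link partner of PCDH15 in hair cells, stood at 132, 113 and 108 CPM in the 3 sets, 8.31-fold above the mean of the others. PCDH15 was 9.05-fold below that mean in ependymal cells, at 75.1 CPM. That mean includes precursors at 3060 CPM and committed precursors at 1607 CPM, and oligodendrocytes were also low at 107 CPM. CDH23 had a UMI in 159 of 792 ependymal nuclei (20.1%, exact 95% binomial interval 17.3 to 23%) and in 1.24% of astrocyte nuclei. Median depth was 1933 UMIs per nucleus in ependymal cells and 1732 in astrocytes, and after thinning the shares were 10.7% and 0.749%. CELSR1, an atypical cadherin of planar cell polarity that orients ependymal cilia, and the desmosomal DSG2 were the 2 higher genes of 11 measured in the wider superfamily, at log2 ratios of 4.41 and 4.25, and DCHS2, DCHS1 and CLSTN2 were the 3 lower ones. Of 11 measured catenins 1 was higher, CTNNA2, and 5 were lower, and of 18 measured regulators 1 was higher, PTPRF, and 5 were lower.

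Endothelial cells had the highest CDH5 of the classes by far, and a high CDH20. Against the mean of the other classes 3 of 23 measured members were at least 2-fold higher, as were 16.9% of 2990 genes tested, and 13 were lower, as were 21.3%. CDH5 (VE-cadherin), which forms the adherens junctions of endothelium, was at 120, 131 and 332 CPM in the 3 sets. It was at or below 8.81 CPM in every other class, and the ratio to their mean was 73.8 on 44 UMIs (log2 6.21). That log2 ratio was 7.27 when nuclei were clustered on all genes but the members and 8.35 when they were thinned. It had a UMI in 33 of 115 endothelial nuclei (28.7%, exact 95% binomial interval 20.6 to 37.9%, median depth 1732 UMIs) and in 0.0335% of astrocyte nuclei (median depth 1732 UMIs). Thinned to 1000 UMIs, these shares were 18.8% and 0.0366%.

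CDH20 was at 1692, 1569 and 1976 CPM in endothelial cells, each set above the highest set of any other class, 2.49-fold above their mean and 1.29-fold above astrocytes (1347 CPM). The inhibitory sub-cluster I1, described below, was higher at 1933 CPM. PCDH1 was just past 2-fold on 10 UMIs, but set 2 lay below the mean of the others, and the difference was under 2-fold without barcode set 1 (log2 ratio 0.85) and without barcode set 3 (0.71). CDH2 was highest of all classes in endothelial cells at 581 CPM in the pool, within 2-fold of the mean. Ependymal cells followed at 468 CPM, and endothelial cells were highest in 2 of the 3 barcode sets. CTNNB1 (beta-catenin), CTNNA1, CTNND1 (p120-catenin) and CTNNAL1 were the 4 of 9 measured catenins that were higher, the first at 358 CPM against a mean of 83.6, and CTNNA2, CTNNA3 and CTNND2 were the 3 that were lower. Of 4 measured genes of the wider superfamily 1 was higher, the atypical cadherin FAT4 at 602 against 96.2 CPM, and 3 were lower, DCHS2, CLSTN2 and FAT1. Of 16 measured regulators 3 were higher, among them AFDN (afadin), which links nectins to actin, at 678 against 169 CPM, and 1 was lower, CYFIP2.

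Mural cells, led by LAMA2, ABCC9, ACTA2 and MYH11, were set apart by CDH6 and CDH11. These were the 2 of 21 measured members that were at least 2-fold higher, where 12.7% of 2891 genes tested were, and 15 were lower, where 17.8% were. CDH6 stood at 951, 1205 and 797 CPM in the 3 sets, 17.2-fold above the mean of the others. No other class reached 300 CPM in any set. CDH6 had a UMI in 97 of 158 mural nuclei (61.4%, exact 95% binomial interval 53.3 to 69.0%) and in 3.83% of astrocyte nuclei, and in 53.0% and 2.12% after thinning. Median depth was 1379 UMIs per nucleus in mural cells and 1732 in astrocytes. In endothelial cells, where CDH6 was at 101 CPM, 79.2% of the 24 CDH6 UMIs came from 5 nuclei. CDH11 was at 965, 690 and 662 CPM, 3.60-fold above the mean of the others. Of the 4 measured genes of the wider superfamily, DCHS2 (log2 ratio 4.45) and FAT1 (1.78) were higher and 0 were lower. Of 16 measured regulators 1 was higher, VCL (vinculin), which couples cadherin junctions to actin, at 553 against 94.7 CPM, and 2 were lower. Of 9 measured catenins 1 was higher, CTNNA3, and 4 were lower.

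Microglia had a high level of CDH13. It stood at 978, 1497 and 1051 CPM, which overlaps the inhibitory neurons, and the ratio to the mean of the other classes was 3.39. CDH13 had a UMI in 101 of 181 microglial nuclei (55.8%, exact 95% binomial interval 48.2 to 63.2%) and in 13% of endothelial nuclei. Thinned to 1000 UMIs the shares were 56.3% and 7.92%, and median depths were 1110 and 1732 UMIs. Before thinning, inhibitory neurons (79.6%) and oligodendrocyte precursors (77.1%) had larger shares than microglia, at median depths of 5635 and 2230 UMIs. Of the 263 microglial CDH13 UMIs, 16% came from 5 nuclei. The inhibitory markers GAD1 and GAD2 stood at 44.1 and 39.7 CPM in microglia and at 37.9 and 25.3 CPM in endothelial cells, where CDH13 was at 101 CPM. Any part of neuronal transcripts in the microglial CDH13 level was not tested. CDH23 was the other of 2 members higher of 22 measured, at 83.7 CPM on 19 UMIs, where 17% of 3000 genes tested were higher. When nuclei were thinned, CDH13 alone had enough UMIs to be called, and the log2 ratio of CDH23 was 2.09. Another 12 members were at least 2-fold lower, where 17.8% of genes tested were, with CDH20 at 115 CPM and PCDH9 at 1820 CPM among them. Among catenins CTNND1 was higher (log2 ratio 1.67) and 4 of 9 were lower. Of 16 measured regulators 1 was higher, RAP1A (log2 ratio 1.41), and 4 were lower, and of 4 measured genes of the wider superfamily 0 were higher and 2 lower.

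The clustered protocadherins were spread over most classes. In the PCDHA and PCDHG clusters, different first exons are joined to shared last exons, and counts come from the 3′ end, so the rows PCDHAC2 and PCDHGC5 cannot be tied to 1 isoform. PCDHAC2 was highest in oligodendrocyte precursors (413 CPM), followed by inhibitory (310 CPM) and excitatory neurons (227 CPM). PCDHGC5 ran from 124 CPM in oligodendrocytes to 686 CPM in astrocytes. PCDHB4 was highest in precursors at 63.9 CPM, PCDHB14 stayed at or under 26.4 CPM in every class, and PCDHB1 had 4 UMIs in the pool.

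Among the remaining members, PCDH17 was highest in precursors (247 CPM) and next in astrocytes (148 CPM), and PCDH10 was highest in oligodendrocytes (112 CPM) and committed precursors (96.5 CPM), whose sets overlap. PCDH8, CDH3, CDH17 (an intestinal cadherin), CDH22 and CDH24 did not exceed 34.3 CPM in any class. CDH26 ran from 12.6 to 126 CPM. Of the members under 500 UMIs, PCDH12, known from endothelium, had 5 of its 56 UMIs in the 115 endothelial nuclei (21.1 CPM).

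Neurons were clustered again without the members, which gave 12 excitatory (E1 to E12) and 12 inhibitory (I1 to I12) sub-clusters of 72 to 2541 nuclei with at least 20 nuclei in each barcode set. Sub-clusters E9 and E11 hold 586 and 332 of the excitatory nuclei set aside above. A sub-cluster was compared with the mean of the other sub-clusters of its kind. Its label genes are the 3 genes of a fixed list with the largest such ratio, and serve as names only. Some ratios were small, as for NECTIN3 in E10 (1.24-fold) and ADARB2 in I12 (1.18-fold). Some levels were low, as for DCN in E7 (5.53 CPM) and PVALB in I1 (5.52 CPM). In excitatory neurons 22 of 33 measured members were at least 2-fold higher in at least 1 sub-cluster, where 25.3% of 7315 genes tested were. In inhibitory neurons 22 of 31 were, where 19.9% of 6120 genes tested were. Together 26 members were higher in at least 1 sub-cluster, 18 of them in both kinds, in 72 pairs of member and sub-cluster. The direction was the same in every barcode set for 70 of the 72 pairs, the exceptions being PCDH18 in I7 and CDH1 in I11.

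**Figure D4:**
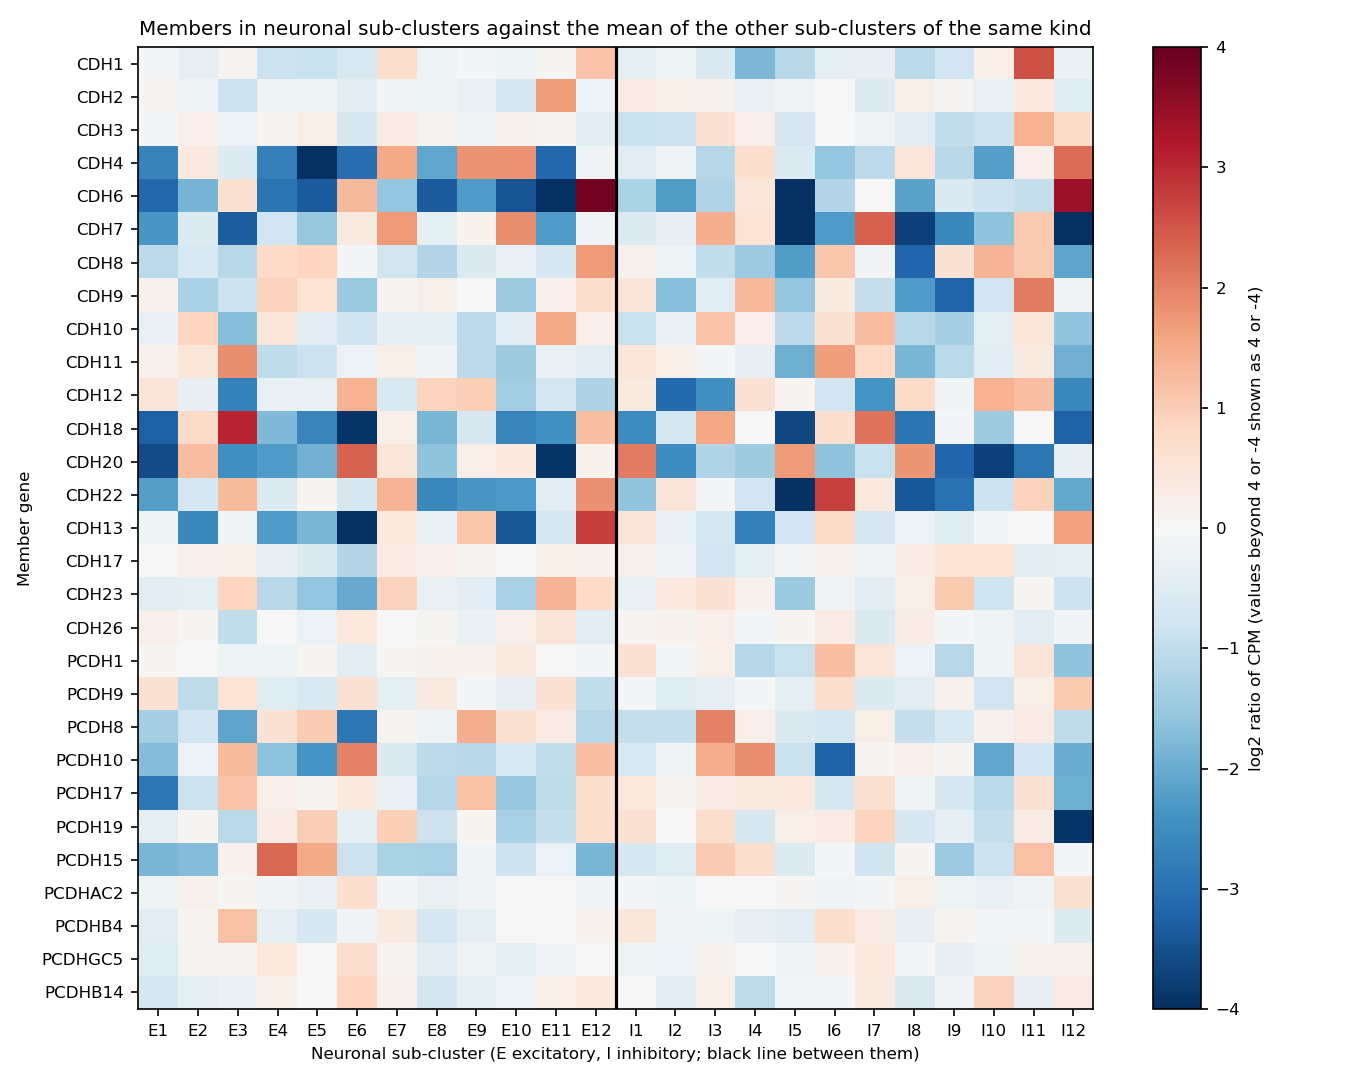
Log2 ratio of CPM in a sub-cluster over the mean of the other sub-clusters of the same kind (colour) for members with at least 500 UMIs in neurons (rows) in 12 excitatory and 12 inhibitory sub-clusters (columns, parted by a black line). CDH6, CDH18, CDH20, CDH4, CDH13, CDH7 and CDH22 show deep colours in some columns, and PCDHAC2, PCDHGC5 and CDH26 are pale throughout.

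Among excitatory sub-clusters E12 and E3 had the most higher members, 7 each, where 4.78% and 7.18% of genes tested were higher in them. E12 (151 nuclei, label genes GPC5, NR4A2 and LAMP5) carried CDH6, CDH13 and CDH8. CDH6 stood at 59.5, 71.5 and 87.2 CPM in the sets of E12, and the next sub-cluster had 23.8 CPM. CDH13 was at 1004, 1088 and 1058 CPM in E12, 6.76-fold above the mean of the others. CDH8 was at 2137, 2240 and 2449 CPM there, 3.27-fold above that mean, and E5 followed at 1402 CPM. E3 (110 nuclei, label genes TLE4, FOXP2 and SULF1) carried CDH18 and CDH11. CDH18 was at 730, 824 and 644 CPM in E3, 8.29-fold above the mean of the others, and CDH11 at 1290, 1273 and 1338 CPM, 3.66-fold above it. CDH5 was 4.53-fold above it in E3 at a low level, 14 CPM on 14 UMIs.

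E6, the smallest sub-cluster (72 nuclei, label genes HTR1F, RSPO2 and TSHZ2), carried CDH20, CDH12, PCDH10, CDH24 and CDH6. CDH20 was at 430, 491 and 635 CPM in E6, 5.08-fold above the mean of the others. CDH12 was at 1232 CPM, 2.61-fold above it, while CDH13 and CDH18 had their lowest excitatory levels in E6, 11.9 and 10.2 CPM. The median doublet score was 0.0575 in E3 and 0.0605 in E6, and 0.0453 or less in every other excitatory sub-cluster. Its part in these levels was not tested.

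The PROX1-rich sub-clusters E4 and E5, whose 2541 and 2326 nuclei all came from the cluster with the highest PROX1, shared PCDH15. It was at 577, 564 and 597 CPM in E4 and at 378, 391 and 390 CPM in E5. Both lie above every other excitatory sub-cluster, where the median over all 12 was 90.5 CPM. In E4, PCDH18 was at 4.88 CPM, 4.25-fold over the mean of the other sub-clusters. CDH9, known from synapses of PROX1-expressing granule cells in the hippocampus, was also highest of the excitatory sub-clusters in E4, at 940 CPM, but less than 2-fold above the mean of the others. CDH4 was low in the same nuclei, with its lowest level, 17.7 CPM, in E5.

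CDH4 was high in E9, E10 and E7 instead. It stood at 738, 842 and 756 CPM in the sets of E9 (label genes ST18, OPRM1 and FEZF2), at 775 CPM in E10 (RGS14, RORB and NECTIN3) and at 671 CPM in E7 (DCN, CALB1 and LAMP5). The sets of E9 and E10 overlap. E7 and E10 also had the highest CDH7, 75.2 and 80.8 CPM, whose sets overlap as well. E11 (CARTPT, UGT8 and COL5A2) was the sub-cluster with the highest CDH2, at 1052, 1101 and 1115 CPM, 3.20-fold above the mean of the others, and the highest CDH10, at 768 CPM. The 2 NECTIN3-rich sub-clusters E1 and E8, with 1770 and 808 nuclei, had no member past 2-fold higher, where 1.63% and 1.43% of genes tested were.

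Among inhibitory neurons, CDH20 divided the sub-clusters into a high and a low group. It stood at 1945, 1869 and 1999 CPM in I1 (label genes PVALB, TAC1 and LHX6), at 1562, 1674 and 1552 CPM in I5 (NOS1, LAMP5 and LHX6) and at 1614, 1647 and 1709 CPM in I8 (LAMP5, LHX6 and CALB1). The next level was 473 CPM in I12, and the lowest was 47.9 CPM in I10. LHX6, a transcription factor of interneurons born in the medial ganglionic eminence, is a label gene of all 3 high sub-clusters. Labels hold only the 3 largest ratios, so a sub-cluster without this label can also carry LHX6. Whether CDH20 follows LHX6 was not tested. The SST-labelled sub-clusters I6 and I11 had 202 and 85.1 CPM.

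CDH13 and CDH4 were both highest in I12 (212 nuclei, LAMP5, PROX1 and ADARB2). CDH13 was at 3006, 3020 and 3600 CPM there, 3.04-fold above the mean of the others, and lowest in I4 at 198 CPM. CDH4 was at 1346, 1435 and 1420 CPM in I12, 4.68-fold above the mean of the others. CDH6 was at 223 CPM in I12 and 10.8-fold above the mean, so CDH6 and CDH13 were each highest in E12 among excitatory and in I12 among inhibitory sub-clusters. PCDH9 was also highest of the inhibitory sub-clusters in I12 (6621 CPM), while PCDH19 was lowest there (6.04 CPM).

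CDH9, CDH3 and CDH1 were highest in I11 (143 nuclei, SOX6, SST and TAC1). CDH9 stood at 1119, 1372 and 1662 CPM in I11, 4.21-fold above the mean of the others, and I4 followed at 930 CPM. I6 (NPY, TAC1 and SST) had the highest CDH22, at 87.6, 92.1 and 86.0 CPM, against 34.7 CPM in I11, and the highest CDH11, at 291 CPM. Among excitatory sub-clusters CDH11 was also higher in E3. CDH22 was higher in 3 of them, E12 (75.1 CPM), E7 (58.3 CPM) and E3.

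I7 (PENK, PROX1 and NR2F2) and I3 (CRH, VIP and PROX1) shared CDH18, CDH7 and CDH10. CDH18 was at 741, 744 and 704 CPM in I7 and at 556, 489 and 514 CPM in I3, and lowest in I5 at 18.0 CPM. CDH7 was at 219 CPM in I7 and 136 CPM in I3, and CDH10 at 667 and 630 CPM. The delta-2 protocadherins PCDH8 and PCDH10 were high in I3, at 56.4 and 118 CPM. PCDH10 was highest in I4 (NR2F2, RELN and PROX1), at 122, 133 and 186 CPM. PCDH18 was also highest there, at 25.2 CPM on 46 UMIs, 6.96-fold above the mean of the others. CDH8 and CDH12 were highest in I10 (MEIS2, HTR3A and RELN), at 1148 and 544 CPM, with CDH12 at 827 CPM in barcode set 2 and 393 CPM in set 3. The median doublet score of I10 was 0.0510, and that of every other inhibitory sub-cluster 0.0282 or less, and its part in these levels was not tested. I2 (HTR3A, CNR1 and RELN) had no member past 2-fold higher, where 1.94% of genes tested were.

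**Figure D5:**
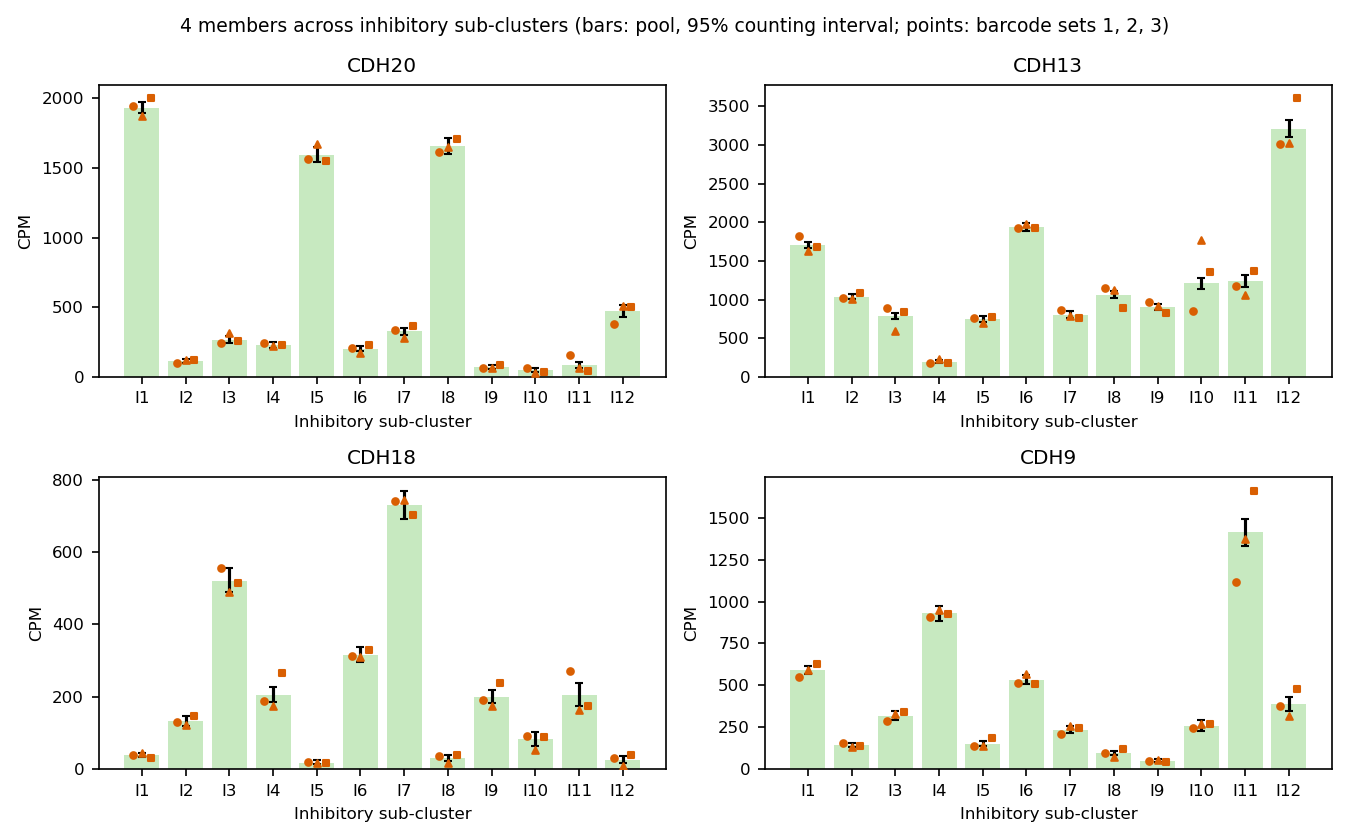
CPM of CDH20, CDH13, CDH18 and CDH9 (y axes) in the 12 inhibitory sub-clusters (x axes), with bars for the pool, whiskers for the exact 95% Poisson interval and points for the 3 barcode sets. CDH20 is high in I1, I5 and I8, CDH13 in I12, CDH18 in I7 and I3, and CDH9 in I11 and I4.

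Other members varied little among sub-clusters. PCDHAC2 varied 1.83-fold between its highest and lowest excitatory sub-cluster and 1.71-fold between inhibitory ones. PCDHGC5 varied 2.10-fold and 1.62-fold, CDH26 2.62-fold and 1.76-fold. By comparison, CDH6 varied 135-fold and 102-fold and CDH18 71.6-fold and 40.6-fold. These ratios are approximate, since their lowest levels were low. CDH6 was at 0.547 CPM in E11 and 2.19 CPM in I5, and CDH18 at 10.2 CPM in E6 and 18.0 CPM in I5. CDH2 varied 4.65-fold among excitatory and 1.80-fold among inhibitory sub-clusters.

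Correlations of log2(CPM + 1) over the 24 neuronal sub-clusters describe which patterns were alike. The sub-clusters share libraries and differ in depth, and excitatory and inhibitory ones are pooled. Among member pairs PCDH1 and CDH11 had the highest Pearson correlation (0.84), followed by PCDHAC2 and PCDHGC5 (0.78), and PCDHAC2 and PCDH1 the lowest (−0.74). A reference gene table (assembly T2T-MMU8v2.0, used only for gene order) held 34 of the 36 members. In it CDH8 and CDH11, CDH10 and CDH9, CDH9 and CDH6, and CDH3 and CDH1 have 0 coding genes between them. Their correlations were 0.52, 0.36, −0.08 and 0.14. For the 5 members with the most UMIs the closest of 5324 genes kept out of the clustering were ANKRD27, CLSTN2 and DUSP22 for PCDH9 (0.73, 0.72 and 0.71) and DNAH5, C2orf42 and GGNBP2 for CDH8 (0.77, 0.75 and 0.72). They were GAS2 and PDGFC for CDH9 (0.72 and 0.70), TNKS1BP1, POLR2E and OVCH1 for CDH12 (0.81, 0.74 and 0.68) and GPATCH2L for CDH2 (0.76), beside rows that carry identifiers only.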

How the data were processed

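The deposited file holds raw UMI counts per gene and nucleus, made by the authors; the submitters' processing notes name Cell Ranger 3.0.0, fastp and GRCh38. Macaque identifiers name 5142 of the rows, which leaves the build unsettled, so coordinates are left out. Counts covered 26400 nuclei with a median of 5054 UMIs. Scrublet's highest scores (0.8% per 1000 nuclei) were left out as presumed doublets. Nuclei were clustered (scanpy 1.11.5, 2000 variable genes, 30 components, 15 neighbours, Leiden resolution 0.5) on 9882 genes. These exclude the members and the lists of catenins, wider superfamily genes and regulators, except listed genes that are also class markers or label genes. Clusters were named from 98 of 108 fixed markers by thresholds set after the data were seen. Counts were summed per class and divided by the class total (CPM). Intervals are exact 95% Poisson or binomial ones and cover counting error only. A count of 0 was set to 3 UMIs in ratios. With 1 pool there is no test: called means a ratio of at least 2 in a gene with at least 50 UMIs in 1 group and at least 10 expected in both. The ratio code was tested on simulated data. The members and lists were chosen with earlier results of these data known. By rule, any measured member or listed gene past 2-fold in a comparison and the 3 members with the largest ratio in a sub-cluster could be named, and for the 5 most counted members the 3 most alike genes were. Other members named in sub-clusters (CDH12, CDH8, CDH18, CDH10 and the like) were chosen after their values were seen. The closing section gives other settings, including TMM scaling (edgeR 4.0.16). The values of 1 gene of the pathway lists are not reported here.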

Additional observations from a re-analysis of the deposited data

How the results depend on the processing

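No paired analysis was possible because the labels form 1 group and the nuclei are tied to no sample. Of the counts of members, 3 moved by over 1.5 times in the settings run. Microglia had 1 member higher when nuclei were thinned to 1000 UMIs, and oligodendrocytes had 1 higher and 6 lower than precursors when 200 UMIs were required. The other 152 settings of such counts stayed within 1.5 times. One value reversed: CDH4 in oligodendrocytes over precursors moved from −2.67 to 0.15 on the log2 scale when clusters with a high doublet score were named by their markers. That setting also moved CDH6 to −4.07, PCDH15 to −3.83 and PCDHGC5 to −1.15 there, and CDH23 in microglia from 2.21 to 1.49. Thinning moved CDH18 in oligodendrocytes over precursors to −1.49 and CDH1 in astrocytes to 2.22. Of 38 named ratios 34 never came under 2-fold. The 4 others were CDH4, CDH15 and CDH7 as given above and endothelial PCDH1, which was 0.22 with presumed doublets kept. TMM scaling put excitatory over inhibitory CDH15 at −1.0.

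Without 1 barcode set at a time, the excitatory members higher than inhibitory stayed at 3 and those lower came to 7 against 8. The oligodendrocyte ones came to 3 and 9 to 10, and astrocytes to 3 against 4. Any part of fewer UMIs, and so fewer members measured, in these counts was not tested. Microglia, mural and ependymal cells stayed at 2, endothelial cells at 2 to 3, excitatory sub-clusters at 20 to 22 and inhibitory ones at 19 to 24. Described members highest in a neuronal class were 6 to 7, against 8 with all sets. TMM scaling moved the median log2 ratio of all genes by −0.41 in microglia, −0.28 in mural cells, −0.27 in endothelial cells and 0.11 between the neuronal classes. It lowered the share of higher among called genes from 48.9 to 29.9% in microglia, from 44.2 to 33.1% in endothelial and from 41.5 to 27.9% in mural cells. Counting the 922 nuclei set aside as excitatory was chosen after seeing the data. Few UMIs limit committed precursors, microglia, mural and endothelial cells, whose class totals were 224429 to 269408 UMIs, against 803479 or more in the other classes.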

Other observations

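A deposited row carrying a macaque Ensembl identifier, ENSMMUG00000012777, matches PCDH11X in the reference gene table and is not among the members, since its deposited name is not a symbol. PCDH11X is a delta-1 protocadherin. It stood at 1797 CPM in committed oligodendrocyte precursors, 977 CPM in oligodendrocytes and 964 CPM in precursors. In neurons it was at 251 CPM in inhibitory and 38.4 CPM in excitatory nuclei (log2 ratio −2.71), and in astrocytes at 39.6 CPM. This row was open to the clustering, so its differences between classes are not independent of it, and it was singled out after its values were seen.

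An unnamed cluster of 28 nuclei led by CASQ2, EBF3, RELN, NDNF and TP73, also chosen after its values were seen, held CDH4 at 3292 CPM on 460 UMIs. No named class exceeded 1231 CPM. Its median doublet score was 0.0696, above the limit of 0.06 set for naming.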
